A study of Mus musculus with 17 samples.

Results

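The acute phase reactants examined were 10 genes chosen by name: the serum amyloid A genes Saa1, Saa2 and Saa3, the orosomucoids Orm1 and Orm2, haptoglobin (Hp), haemopexin (Hpx), lipocalin 2 (Lcn2), serum amyloid P (Apcs) and C-reactive protein (Crp). All 10 were found among the 52545 genes of the deposited table, and all 10 passed the filter on low values that left 18624 genes for testing. Bulk RNA of non-tumorous liver came from 17 male C57BL/6J mice of 32 weeks, 1 library per mouse. The Regular diet group held 5 mice with no treatment. The Vehicle Control group held 6 mice that had been given the liver carcinogen diethylnitrosamine (DEN, 100 mg/kg, once, at week 1), were kept on CDA-HFD, a choline-deficient high-fat diet that produces fatty liver and fibrosis, and received PBS by intraperitoneal injection 1 time per week for 16 weeks. The CLDN1 mAb group held 6 mice with the same carcinogen and diet, injected on the same schedule with 500 µg of a monoclonal antibody that binds claudin-1, one of the membrane proteins of tight junctions. No group received only one of carcinogen, diet or injections, so a difference from Regular diet cannot be told apart between the 3. The control injection was PBS and not another antibody, so binding of claudin-1 and the injection of an antibody as such cannot be told apart. The labels name no litters or cages, and each p-value rests on the variation among the mice at hand.

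Acute phase reactants are secreted proteins whose synthesis in hepatocytes shifts during infection, injury or inflammation. Interleukin 6 and its relatives act through JAK kinases and the transcription factor STAT3, while interleukin 1 and tumour necrosis factor act through NF-kappaB. Factors of the C/EBP family bind many acute phase promoters and cooperate with both routes. In mice, serum amyloid A and serum amyloid P are strongly inducible, whereas Crp, the leading reactant of human plasma, is known to respond little. Hp and Hpx are abundant in healthy liver too.

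The Saa and Orm members lie in gene clusters with near copies of each other. On mouse build mm10, Saa3 (chr7:46711998-46715700), Saa1 (chr7:46740497-46742980) and Saa2 (chr7:46751790-46754313) are neighbours on chromosome 7, and Orm1 (chr4:63344560-63348163) and Orm2 (chr4:63362449-63365878) are neighbours on chromosome 4. Coding transcripts of Saa1 and Saa2 were identical at 93.9% of aligned bases, those of Orm1 and Orm2 at 91% and those of Saa1 and Saa3 at 61.6%. Reads of the first pairs could therefore be split between copies by the authors' counting, and each of these single-gene values carries that uncertainty. Apcs (chr1:172893961-172895041) and Crp (chr1:172698055-172833031) lie on chromosome 1, Hpx (chr7:105591613-105600137) on chromosome 7, Hp (chr8:109575128-109579172) on chromosome 8 and Lcn2 (chr2:32384633-32388252) on chromosome 2. No exon of a member overlapped an exon of another annotated gene.

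Promoter sequences from RefSeq (GRCm38.p6) were matched for 8 of the 10 members. The C/EBP motif TTGCNNAA, read on both strands, occurred within the 250 bases before the start of Saa1, Saa2, Saa3, Orm2, Lcn2 and Hpx, 6 of 8 member promoters, against 9.56% of 32851 promoter windows of the same length. A STAT3 motif (TTCNNNGAA) was found in Apcs alone of the 8, against 7.02% of all promoters. The interleukin 6 response motif CTGGGAA was likewise found only in Apcs, at 2 places, against 9.1% of all promoters. The NF-kappaB motif, present in 7.25% of all windows, was found in 0 of the 8 member promoters, and Crp was without a match to any motif searched. None of the matches overlapped each other. The sequences below are those of the members that differed between groups and of Saa1, the near copy of Saa2, so that the sequence can be read beside the expression. Each runs 5′ to 3′ on the gene's strand with motif matches in capitals, and stops where an annotated exon begins.
Saa1: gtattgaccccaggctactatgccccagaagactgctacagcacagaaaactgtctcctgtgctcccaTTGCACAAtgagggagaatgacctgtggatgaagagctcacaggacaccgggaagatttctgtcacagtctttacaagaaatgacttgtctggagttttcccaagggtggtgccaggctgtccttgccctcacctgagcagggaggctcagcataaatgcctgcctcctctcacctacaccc
Saa2: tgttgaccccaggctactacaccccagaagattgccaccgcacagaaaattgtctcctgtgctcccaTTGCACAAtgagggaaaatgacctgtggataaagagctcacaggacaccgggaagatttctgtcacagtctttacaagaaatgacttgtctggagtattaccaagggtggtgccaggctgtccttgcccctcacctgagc
Saa3: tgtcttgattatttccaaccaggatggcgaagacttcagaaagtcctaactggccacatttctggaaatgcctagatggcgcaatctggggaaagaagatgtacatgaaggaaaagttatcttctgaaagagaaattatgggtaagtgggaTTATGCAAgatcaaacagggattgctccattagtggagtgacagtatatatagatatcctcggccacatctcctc
Orm2: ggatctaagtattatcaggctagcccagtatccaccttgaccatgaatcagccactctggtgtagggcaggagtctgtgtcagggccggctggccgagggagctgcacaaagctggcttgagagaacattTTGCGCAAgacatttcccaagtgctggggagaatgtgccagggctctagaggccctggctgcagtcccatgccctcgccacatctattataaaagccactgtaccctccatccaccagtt
Apcs: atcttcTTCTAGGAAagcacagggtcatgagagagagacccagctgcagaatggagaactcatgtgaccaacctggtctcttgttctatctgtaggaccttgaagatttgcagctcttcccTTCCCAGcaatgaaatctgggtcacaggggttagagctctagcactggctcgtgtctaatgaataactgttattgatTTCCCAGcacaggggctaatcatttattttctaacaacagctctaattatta
Crp: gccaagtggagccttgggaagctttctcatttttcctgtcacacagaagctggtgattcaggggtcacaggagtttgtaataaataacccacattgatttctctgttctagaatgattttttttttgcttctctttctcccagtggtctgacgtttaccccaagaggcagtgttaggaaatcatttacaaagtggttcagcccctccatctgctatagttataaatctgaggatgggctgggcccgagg
The Saa1 (chr7:46742981-46743230, minus strand) and Saa2 (chr7:46751583-46751789, plus strand) promoters carried the same C/EBP letters, TTGCACAA, which began 182 and 183 bases before the RefSeq start. Over the full windows they were identical at 94.8% of aligned bases. In Saa3 (chr7:46715701-46715926, minus strand) the C/EBP match began 99 bases before the start, and in Orm2 (chr4:63362199-63362448, plus strand) 120 bases before it. The Apcs promoter (chr1:172895055-172895304, minus strand) held the STAT3 match at its far end, 244 bases before the start, and the response element matches at 129 and 52 bases. The Crp window (chr1:172697806-172698054, plus strand) is shown as the member without a match whose level was lower in the disease model. For Lcn2, 197 of the 250 bases lie in exons of other annotated Lcn2 transcripts, so only the 30 bases around the match (chr2:32387937-32387966, minus strand) are given.
Lcn2: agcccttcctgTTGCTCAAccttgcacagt
These matches describe letters in the reference sequence and are not measurements of binding.

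The values are counts that the authors normalized with cuffnorm, and their sum per library was 29.7 to 74.6 M (M for mega). Regular diet mouse 1 stood apart with the highest sum, 74.6 M, where the other 4 Regular diet libraries had 48.2 to 51.2 M, Vehicle Control 29.7 to 42.1 M and CLDN1 mAb 35.4 to 42.8 M. The Regular diet libraries also carry codes of their own, 31 to 35, so library code and diet group cannot be told apart. For the members, fold changes are also given after scaling every library to the same sum where that changed a call or a direction. Genes of the further lists and cell type markers are given with the values as deposited only. Their calls against Regular diet may depend on scaling. Over all genes, 3853 were called lower in Vehicle Control than in Regular diet as deposited, and 1264 at the same sum per library. Of 13 hepatocyte markers, 12 were tested and 11 were lower in Vehicle Control than in Regular diet. The remaining marker, Alb, which encodes albumin, stood at 0 in every library, which can be a failed estimate, while no value of a member was 0. The hepatocyte markers summed to 1740000 to 3290000 in Regular diet, 313000 to 1290000 in Vehicle Control and 680000 to 1330000 in CLDN1 mAb. In bulk tissue, fewer cells of a type and less RNA per cell cannot be told apart.

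Between Vehicle Control and Regular diet, the members split by gene. Lcn2, Orm2, Saa3 and Apcs were higher in Vehicle Control, Crp was lower, and Saa1, Saa2, Orm1, Hp and Hpx did not pass the threshold (limma-trend with Benjamini-Hochberg adjustment over 18624 genes, adjusted p under 0.05, used for every adjusted p of a fold change below). The call was thus higher for 4 of 10 members, beside 29.8% of all genes tested, and lower for 1 of 10, beside 20.7%. At these sizes the counts are near the background. The median log2 fold change was 0.81 over the members and 0.04 over all genes. Scaling to the same sum moved the median of all genes to 0.65 and made 88.1% of all called genes higher, against 59% with the values as deposited and 46% after quantile normalization.

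**Figure D1:**
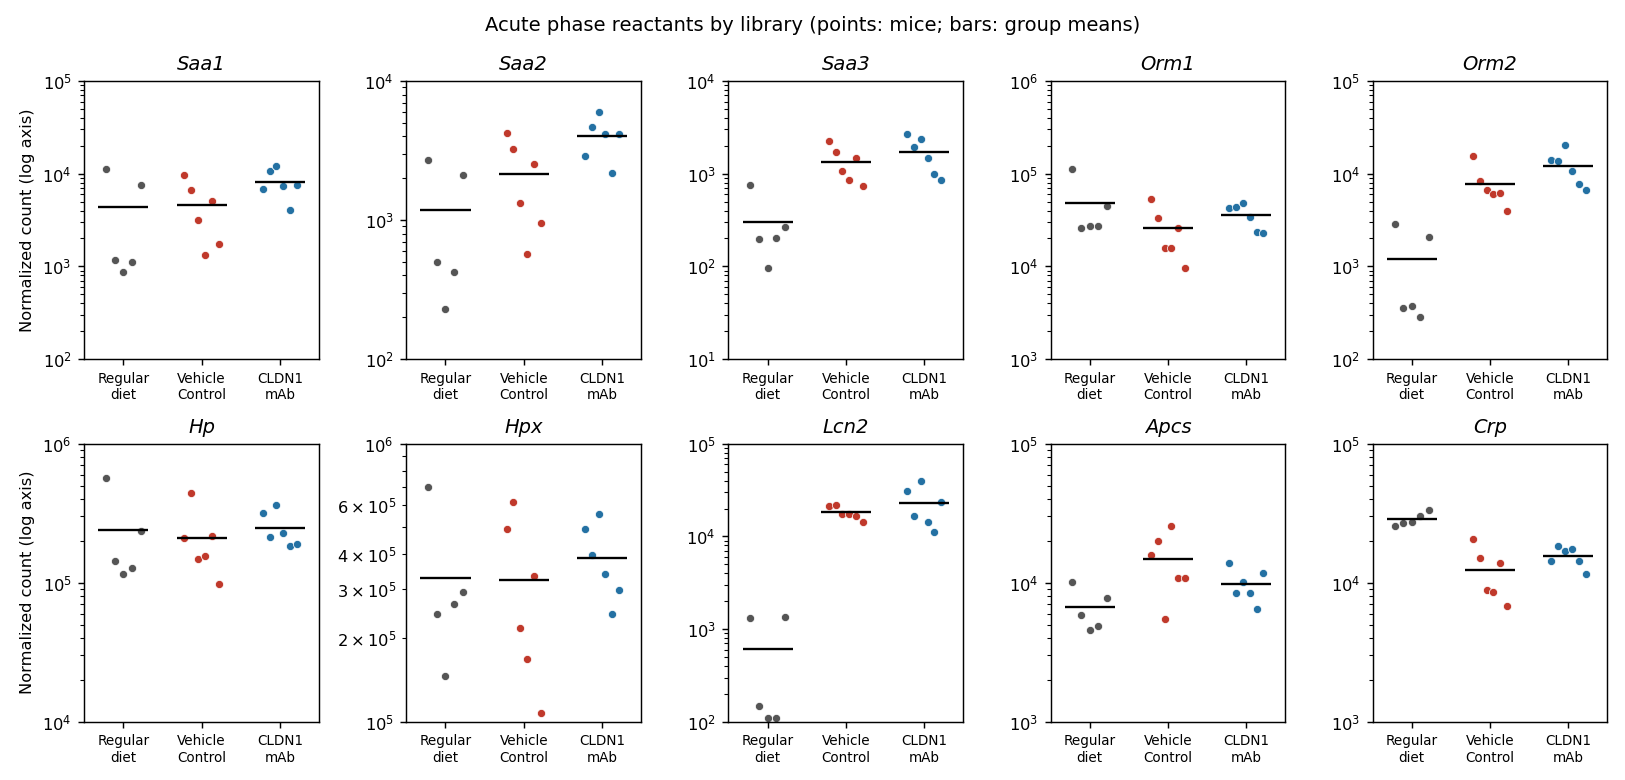
Normalized count of each of the 10 acute phase reactants (vertical axes, log scale, a different range in each panel) in each of 17 mice, by group; points are mice and bars are group means. Lcn2 and Orm2 show no overlap between Regular diet and the other groups, and Crp is lower in both disease model groups. Regular diet mice 1 and 5 lie above the other 3 for every member but Crp.

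Lcn2 encodes a small secreted protein that binds bacterial siderophores and so withholds iron from bacteria. Its normalized counts in Regular diet mice 1 to 5 were 1307, 149.6, 108.5, 110.1 and 1355. In Vehicle Control they ran from 14200 through a median of 17400 to 21700, and in CLDN1 mAb from 11300 through 19900 to 40100. Every disease model mouse lay above every Regular diet mouse, and among the Regular diet mice 1 and 5 stood well above the other 3. The log2 fold change of Vehicle Control against Regular diet, on the scale of log2(value + 1), was 5.82 ± 0.60 (SE; 56.4-fold, adjusted p = 4.31e-07), the largest among the 10 members. Leaving out any 1 mouse gave 5.43 to 6.34.

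Orm2, one of the orosomucoids, plasma glycoproteins that bind drugs and modulate immune cells, had 2872, 353, 374.6, 280.7 and 2068 in the Regular diet mice. Vehicle Control values ran from 3920 through 6440 to 15500, and CLDN1 mAb values from 6630 through 12300 to 20300. The groups did not overlap with Regular diet, and the log2 fold change of Vehicle Control was 3.26 ± 0.55 (9.6-fold, adjusted p = 8.26e-05). Orm1 behaved otherwise. Its Regular diet values were 113549, 26040, 27084, 27450 and 44674, against 9670 to 53000 with a median of 21000 in Vehicle Control and 23200 to 48000 with a median of 38400 in CLDN1 mAb. Its log2 fold change of Vehicle Control was -0.85 ± 0.43 (adjusted p = 0.11), with overlapping groups. It passed the threshold without Vehicle Control mouse 1 (-1.10, adjusted p = 0.0309) and with sample weights (-0.91, adjusted p = 0.00703). It was -0.22 at the same sum per library and 0.02 after quantile normalization.

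The share of Orm2 in the sum of Orm1 and Orm2 is unchanged by any single scaling factor per library, though not by quantile normalization. It was 2.47%, 1.34%, 1.36%, 1.01% and 4.43% in the Regular diet mice, 19.3 to 29.4% in Vehicle Control (24.6% ± 4.51, SD, n = 6) and 22.3 to 29.7% in CLDN1 mAb (24.9% ± 2.55, SD, n = 6). No disease model mouse reached down to the Regular diet range, while the disease model groups covered nearly the same range. Orm3, the third mouse orosomucoid and 88% identical to Orm2 over the aligned transcripts, also rose, with a log2 fold change of 2.36 (adjusted p = 0.0153).

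**Figure D2:**
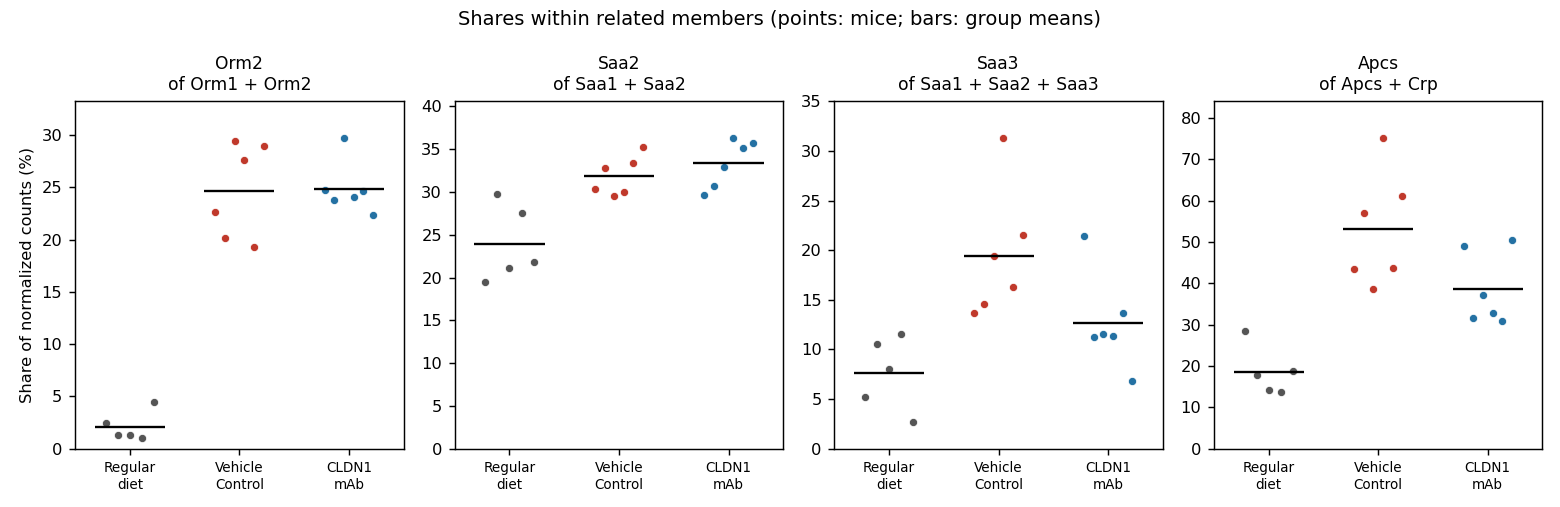
Share of one member in the summed normalized counts of related members (vertical axes, percent), by group; points are mice and bars are group means. Orm2 is at most 4.43% of the orosomucoid pair in Regular diet and lies between 19.3 and 29.7% in the other 12 mice, whereas the Saa2 share overlaps between groups.

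The serum amyloid A proteins travel on high-density lipoprotein in plasma. Saa3, which is made outside the liver as well, including in macrophages, had 759.1, 196.9, 95.39, 200.9 and 268.9 in the Regular diet mice. Vehicle Control ran from 742 through 1270 to 2230 and CLDN1 mAb from 861 through 1700 to 2660, so 5 of 6 Vehicle Control mice and all 6 CLDN1 mAb mice were above the highest Regular diet mouse. The log2 fold change of Vehicle Control was 2.38 ± 0.43 (5.22-fold, adjusted p = 1.93e-04). The main hepatic forms, Saa1 and Saa2, varied widely between healthy mice. Saa1 had 11131, 1171, 861.2, 1106 and 7522 in Regular diet, and Saa2 had 2697, 496.1, 230.2, 421.1 and 2096. Mice 1 and 5 were the highest of the Regular diet mice for both genes and for every other member but Crp, for which mouse 1 was the lowest.

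In Vehicle Control, Saa1 ran from 1320 through 4110 to 9760 and Saa2 from 565 through 1930 to 4240, so that all Saa1 values lay inside the Regular diet range and 2 of 6 Saa2 values above it. Log2 fold changes were 0.56 ± 0.65 for Saa1 (adjusted p = 0.496) and 1.15 ± 0.60 for Saa2 (adjusted p = 0.123). Saa2 passed the threshold without Regular diet mouse 1 (1.60, adjusted p = 0.0266) and after scaling to the same sum (1.77, adjusted p = 0.00797). The unadjusted 95% interval of the Saa1 change, 0.574-fold to 3.81-fold, covers both a fall and a rise. Saa2 made up 23.9% ± 4.46 (SD, n = 5) of the Saa1 and Saa2 sum in Regular diet, 31.8% ± 2.26 (n = 6) in Vehicle Control and 33.4% ± 2.77 (n = 6) in CLDN1 mAb, with overlap. Saa3 made up 7.63% ± 3.7 of the 3 genes' sum in Regular diet, 19.5% ± 6.49 in Vehicle Control and 12.7% ± 4.82 in CLDN1 mAb.

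The scavengers of haemoglobin and haem, Hp and Hpx, were the most abundant members, and neither passed the threshold in any comparison with the values as deposited. Hp had 570161, 144160, 116130, 127519 and 237114 in Regular diet, 97400 to 441000 with a median of 182000 in Vehicle Control, and 183000 to 364000 with a median of 220000 in CLDN1 mAb. Hpx had 700641, 244845, 146169, 264599 and 293149 in Regular diet, 107000 to 619000 with a median of 276000 in Vehicle Control, and 245000 to 558000 with a median of 370000 in CLDN1 mAb. Regular diet mouse 1 was the highest for both genes, and the 3 groups overlapped. Log2 fold changes of Vehicle Control were -0.06 ± 0.44 for Hp (adjusted p = 0.923) and -0.08 ± 0.48 for Hpx (adjusted p = 0.905). These directions depended on scaling: at the same sum per library Hp was 0.56 and Hpx 0.54, and after quantile normalization both passed the threshold (1.07, adjusted p = 0.00252 for Hp, and 1.14, adjusted p = 8.86e-04 for Hpx).

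The pentraxins, ring-shaped proteins that tag microbes and cell debris, moved in opposite directions. Apcs had 10180, 5902, 4568, 4856 and 7719 in Regular diet, 5530 through 13300 to 25700 in Vehicle Control and 6440 through 9270 to 13800 in CLDN1 mAb. All Vehicle Control mice but 1 exceeded the highest Regular diet mouse, and the log2 fold change was 1.05 ± 0.33 (2.08-fold, adjusted p = 0.0126). Crp was tight in Regular diet, at 25620, 27032, 27532, 30252 and 33516, and lower in Vehicle Control, from 6830 through 11300 to 20700, and in CLDN1 mAb, from 11600 through 15700 to 18300. No Vehicle Control mouse reached the lowest Regular diet mouse, and the log2 fold change was -1.33 ± 0.24 (2.52-fold lower, adjusted p = 1.57e-04). It was -0.71 at the same sum per library (adjusted p = 0.00471) and -0.52 after quantile normalization (adjusted p = 0.0316), so the fall was smaller but past the threshold under both. Apcs made up 18.6% ± 5.9 (SD, n = 5) of the pentraxin pair in Regular diet, at most 28.4%, and 53.2% ± 13.8 (SD, n = 6) in Vehicle Control, at least 38.6%.

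Per kilobase of the lowest-numbered coding transcript, the mean level was highest for Hpx, Hp and Orm1, in this order, in all 3 groups. In Regular diet these were 220000 ± 143000, 178000 ± 142000 and 61600 ± 48500 normalized counts per kilobase (SD, n = 5), and the spreads of neighbours in this order overlapped. Here and below the spread is between mice, while all genes were measured in the same libraries. Overlap therefore does not show that the genes were alike within a mouse, and the order within mice was not tested. Crp had rank 4 of 10 in Regular diet, at 17000 ± 1850, and rank 8 in Vehicle Control, at 7230 ± 3070 (SD, n = 6). Lcn2 had rank 9 in Regular diet, at 662 ± 724, and rank 4 in Vehicle Control, at 19800 ± 3190. Saa3 was the lowest in each group, at 548 ± 472 in Regular diet and 2420 ± 1020 in Vehicle Control. Below Lcn2 in Vehicle Control came Apcs at 15200 ± 7510, Orm2 at 10100 ± 5190, Saa1 at 7590 ± 5290 and Crp, and these neighbours lay within each other's spread. In CLDN1 mAb the order of the middle ranks was Lcn2, Orm2, Saa1, Apcs and Crp, from 24800 ± 12100 to 9140 ± 1480 (SD, n = 6), again without a gap beyond the spread between neighbours.

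Markers of several other cell types were higher in Vehicle Control than in Regular diet, as were the members that rose. Within Vehicle Control, mice 1 and 2 had the highest Lcn2 (21439 and 21699) and Saa3 (2226 and 1697). The same mice had the lowest macrophage sums of the group, 89700 and 131000, and the highest hepatocyte sums, 1200000 and 1290000. The marker counts below stand beside 29.8% of all genes higher and 20.7% lower in Vehicle Control. Of 14 neutrophil markers, 11 were tested, 7 were higher in Vehicle Control and none was lower. The 14 summed to 186 to 965 normalized counts in Regular diet, 1160 to 4380 in Vehicle Control and 1130 to 1680 in CLDN1 mAb. Ly6g, the defining surface marker, was at 0 in all 5 Regular diet libraries and in CLDN1 mAb mouse 1. Of 13 macrophage markers, all tested, 10 were higher and 1, the Kupffer cell lectin Clec4f, was lower. Their sum was 15400 to 40600 in Regular diet, 89700 to 340000 in Vehicle Control and 123000 to 228000 in CLDN1 mAb, and none was at 0 in any library. All 8 cholangiocyte markers were higher, with sums of 2560 to 4130, 45000 to 100000 and 40000 to 78300 in the same order. Of 10 stellate cell and fibroblast markers 8 were higher, with sums of 12300 to 19200, 33600 to 138000 and 27900 to 94900, and of 8 T and B lymphocyte markers 3 were higher, with sums of 523 to 1150, 864 to 12200 and 1140 to 3730. The 8 endothelial markers (1 higher, 2 lower, sums of 9710 to 13000, 2900 to 15400 and 2860 to 11400) and the 9 adipocyte markers (5 tested, 2 higher, 2 lower, sums of 1790 to 3360, 2220 to 10900 and 3570 to 4730) moved both ways. Lep, the adipocyte hormone leptin, was at 0 in 16 of 17 libraries. The part of these cell types in the changes of Lcn2 and Saa3 was not tested.

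The question put to the antibody was whether it altered the livers of disease model mice, and for these genes no difference was detected. Neither any member nor any other gene passed the threshold between CLDN1 mAb and Vehicle Control: 0 of 10 members, beside 0% of all genes tested. At an unadjusted p under 0.05 there were also 0 of 10 members, beside 7.47% of all genes (1391 genes). Log2 fold changes were above 0 for 9 of 10 members, with a median of 0.44 against -0.05 for all genes. After quantile normalization Hp, Hpx and Lcn2 lay below 0.

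Saa2 and Saa1 had the largest estimates, 1.16 ± 0.57 (2.23-fold, unadjusted p = 0.0595, adjusted p = 0.659) and 1.06 ± 0.62 (2.08-fold, adjusted p = 0.677). Saa1 ran from 4040 through 7420 to 12200 in CLDN1 mAb and Saa2 from 2180 through 4170 to 5970, and for each gene 2 of 6 CLDN1 mAb mice exceeded the highest Vehicle Control mouse. The unadjusted 95% interval reached from 0.965-fold to 5.15-fold for Saa2 and from 0.845-fold to 5.13-fold for Saa1. Orm2 (0.68 ± 0.52), Orm1 (0.65 ± 0.41), Hpx (0.46 ± 0.45), Crp (0.43 ± 0.23), Hp (0.35 ± 0.42), Saa3 (0.33 ± 0.41) and Lcn2 (0.20 ± 0.57) followed on the log2 scale, with adjusted p between 0.665 and 0.935. Apcs had the only estimate below 0, -0.47 ± 0.31 (adjusted p = 0.706). For Lcn2 the interval was 0.498-fold to 2.65-fold and for Crp 0.966-fold to 1.87-fold, so both include no change, and that of Lcn2 includes a fall as well as a rise of over 1.5 times.

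For the members this outcome changed under 1 of the alternatives. With sample weights estimated from the same values, which gave Regular diet mouse 1 a weight of 0.0851 and Vehicle Control mice 1 and 2 weights of 0.175 and 0.383 against up to 2.53 for other mice, 5310 genes and 4 members passed the threshold in CLDN1 mAb against Vehicle Control. These members were Crp (0.76, adjusted p = 0.00623), Orm1 (0.98, adjusted p = 0.0173), Saa2 (1.74, adjusted p = 0.0236) and Saa1 (1.56, adjusted p = 0.0464). Leaving out 1 mouse at a time called no member. Vehicle Control mice 1, 2 and 5 had the 3 highest hepatocyte marker sums of their group, 1200000, 1290000 and 856000 against 313000 to 489000 in the other 3, and also the 3 highest values of Saa1, Saa2, Saa3, Orm1, Hp, Hpx and Crp. Their macrophage marker sums were the lowest of the group, 89700, 131000 and 168000 against 297000 to 340000. The part of cell content in this spread was not tested. The library codes of the 12 disease model mice form blocks of 25 to 30 and 36 to 42, each with mice of both groups, and a term for the block left 0 members called, with Saa2 at 1.16 (adjusted p = 0.4).

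**Figure D3:**
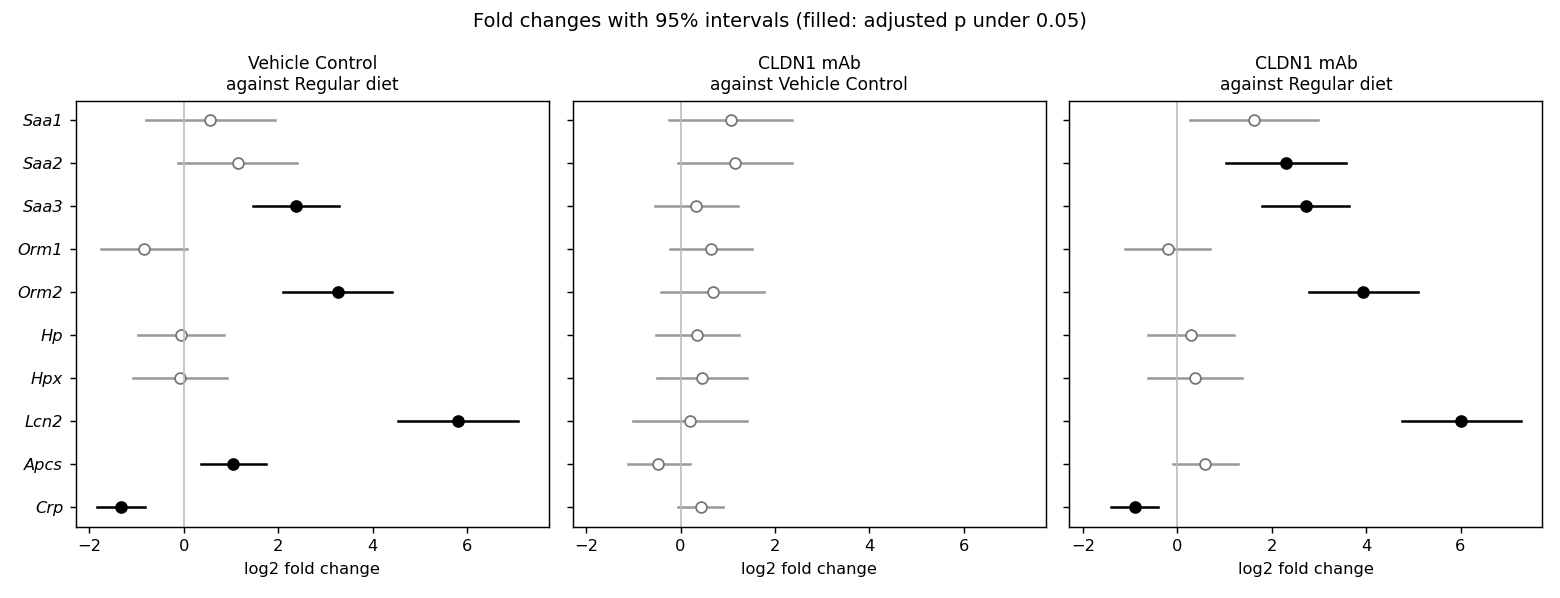
Log2 fold change of each member (horizontal axis) in the 3 comparisons; points are limma estimates, lines are unadjusted 95% intervals and filled points have an adjusted p under 0.05. Lcn2, Orm2 and Saa3 lie to the right of 0 and Crp to the left in both comparisons with Regular diet, while every interval between the disease model groups includes 0.

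Against Regular diet, CLDN1 mAb mice gave a similar list, and this comparison shares its 5 Regular diet mice with that of Vehicle Control. Calls were higher for 4 of 10 members (24.8% of all genes) and lower for 1 of 10 (14.1% of all genes). Lcn2 was 6.02 ± 0.60 higher on the log2 scale (64.9-fold, adjusted p = 4.33e-07), Orm2 3.94 ± 0.55 (15.3-fold, adjusted p = 1.65e-05), Saa3 2.72 ± 0.43 (6.58-fold, adjusted p = 7.56e-05) and Saa2 2.30 ± 0.60 (4.94-fold, adjusted p = 0.00548). Crp was lower by a log2 difference of -0.90 ± 0.24 (adjusted p = 0.00569). That call was lost at the same sum per library (-0.46, adjusted p = 0.0627) and after quantile normalization (-0.28, adjusted p = 0.268).

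Saa2, called here, and Apcs, called in Vehicle Control, are the members on which the lists differ. Side by side, Saa2 was at 1.15 in Vehicle Control and 2.30 in CLDN1 mAb, and Apcs at 1.05 and 0.59 (adjusted p = 0.17 in CLDN1 mAb). The direct comparison of the groups called neither gene. Saa1 was at 1.62 ± 0.65 (adjusted p = 0.0563) and passed the threshold without Regular diet mouse 1 (2.16, adjusted p = 0.00722), without Regular diet mouse 5 (2.02, adjusted p = 0.0237), without CLDN1 mAb mouse 5 (1.80, adjusted p = 0.0481), at the same sum per library (2.06, adjusted p = 0.00684) and with mouse number as a replicate block (1.73, adjusted p = 0.041). Saa1 also passed after quantile normalization (1.84, adjusted p = 0.017) and with sample weights (2.06, adjusted p = 0.00254). Orm1 (-0.20), Hp (0.29) and Hpx (0.38) did not pass, but after quantile normalization Hp (1.00, adjusted p = 0.00607) and Hpx (1.11, adjusted p = 0.00166) did. At the same sum per library Orm1 turned to 0.24 and Apcs passed (1.03, adjusted p = 0.0086), as it did after quantile normalization (0.93, adjusted p = 0.0271).

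Across the 12 disease model mice, all members other than Lcn2 and Apcs varied together from mouse to mouse. Of 45 pairs, 32 had an adjusted permutation p under 0.05 for Pearson's r of log2(value + 1), and 25 for Spearman's rho (100000 resamples, two-sided, adjusted over the 45 pairs). The 28 pairs among the other 8 members all passed for Pearson's r, from 0.67 upward. The median r was 0.75 and 42 of 45 were above 0. Saa1 and Saa2 were the closest pair (r = 0.99, adjusted permutation p = 1.12e-04; rho = 0.99, adjusted permutation p = 4.5e-04), followed by Orm1 and Crp (r = 0.95; rho = 0.91) and by Orm1 and Orm2, Orm1 and Hpx, and Hp and Hpx (r = 0.93 each). The raw p of Saa1 with Saa2, 1e-05, is the smallest that these permutations can give. Without the 2 mice farthest from the median on the first gene, Saa1 with Saa2 stayed at 0.97 and Orm1 with Crp at 0.89, and 18 of the 45 pairs passed.

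For Apcs none of the 9 pairs passed over the 12 mice, with r from -0.20 (Saa2) to 0.33 (Lcn2). Some of these values rested on few mice. They were taken again without the 2 mice farthest from the median on the first gene, so the mice left out can differ by pair. With Apcs, r was then 0.82 for Hpx, 0.55 for Lcn2, 0.50 for Saa1 and 0.46 for Saa2. For Saa3, Orm2, Hp and Crp it was 0.04 to 0.07, and for Orm1 -0.21. Within CLDN1 mAb, Lcn2 with Apcs had r = 0.79. Lcn2 passed for Pearson's r in 4 of 9 pairs, with Saa3 (0.62), Orm2 (0.61), Hp (0.63) and Hpx (0.61), and had r = 0.27 with Crp. These 4 pairs passed narrowly, with an adjusted permutation p of 0.0415 to 0.0481. None of them passed for Spearman's rho (adjusted permutation p of 0.066 to 0.158). At the same sum per library none passed for Pearson's r either (r of 0.34 to 0.43, adjusted permutation p of 0.249 to 0.362). Within Vehicle Control alone 16 pairs passed an exact permutation test after adjustment, and within CLDN1 mAb none did, where 6 mice allow no p below 0.00139. Orm1 with Crp had r = 0.99 in Vehicle Control and 0.72 in CLDN1 mAb. At the same sum per library the median r fell to 0.57 and 18 pairs passed, and Saa1 with Lcn2 went from 0.51 to 0.19. Saa1 with Saa2 (0.98), Orm1 with Orm2 (0.88), Orm1 with Hpx (0.88) and Orm1 with Crp (0.88) stayed high.

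**Figure D4:**
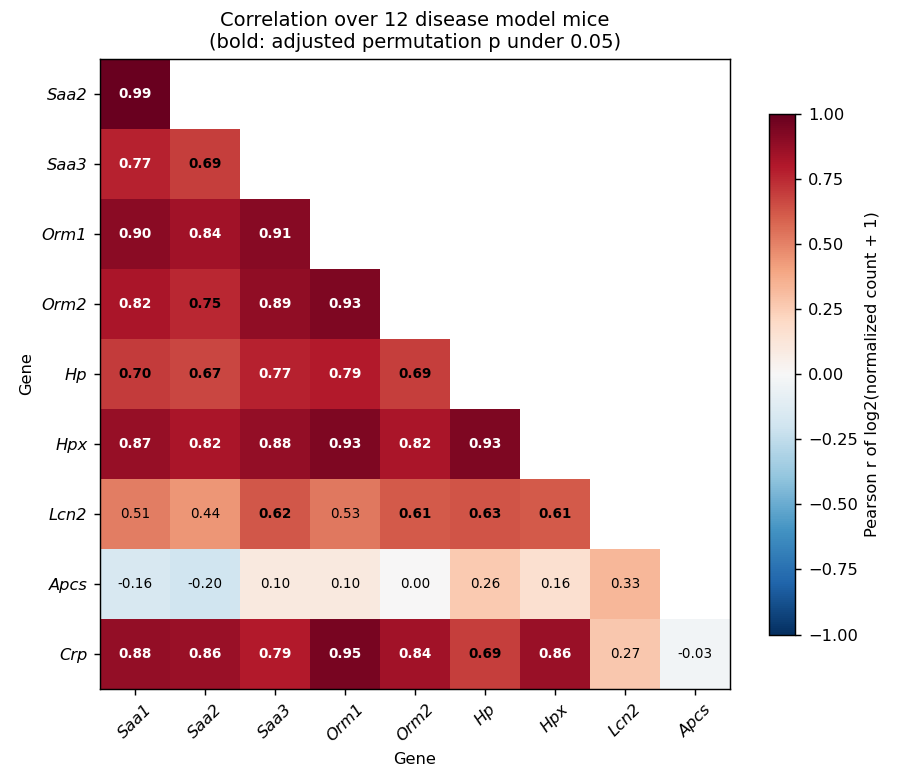
Pearson correlation of log2(normalized count + 1) between members over the 12 disease model mice (colour and number; bold where the adjusted permutation p is under 0.05). Pairs among Saa, Orm, Hp, Hpx and Crp are at 0.67 or above, Lcn2 is lower, and the Apcs row over all 12 mice runs from -0.20 to 0.33.

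Genes that resembled a member most were sought among 13118 tested genes by the correlation of deviations from group means over 17 libraries, given as a description. Saa1 was nearest to Saa2 (0.982), then to Serpina3n (0.906), an acute phase protease inhibitor, and Orm2 (0.9). Orm2 was nearest to Lbp (0.932), the lipopolysaccharide-binding protein, and Lcn2 was nearest to Orm2 (0.894). Over the 12 disease model mice alone, Lcn2 with Orm2 was at 0.601, Saa1 with Orm2 at 0.748 and Orm2 with Lbp at 0.851. Saa1 with Saa2 stayed at 0.982, and Saa1 with Serpina3n was at 0.932. Hpx lay closest to other abundant plasma proteins, Vtn (0.964) and Ambp (0.96), and to Pdia5 (0.963), a protein disulfide isomerase. Crp lay closest to F9 (0.975), clotting factor IX, Il1rap (0.969) and Kmo (0.966). The nearest genes to Orm1 were Mapkapk5, Gpr180 and Commd6, to Hp Mrps17, Vmo1 and Txnrd2, to Saa3 Igbp1, Gpr180 and Tmem176a, and to Saa2, after Saa1, Lrrc18 and Amz2. The nearest gene to Apcs was Ppp3ca (0.81), the lowest such value among the members, while over the 12 disease model mice alone its nearest was Aig1 (0.892). The points share libraries whose sums differ, and only 3 of the 30 neighbours were also among the nearest 3 over the 12 disease model mice.

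Further acute phase genes moved in both directions. Of 30 other positive acute phase proteins, 29 were tested, 7 were higher (beside 29.8% of all genes) and 13 lower (beside 20.7%) in Vehicle Control, with a median log2 fold change of -0.67. Il1rn, the interleukin 1 receptor antagonist, rose by 4.21 ± 0.20 on the log2 scale (adjusted p = 8.89e-11), Cd14, the lipopolysaccharide co-receptor, by 3.72 ± 0.37 (adjusted p = 2.48e-07), and Mt2, a metallothionein, by 5.09 ± 0.57 (adjusted p = 9.87e-07). Mbl2, a mannose-binding lectin made by hepatocytes, fell, with a log2 fold change of -3.14 ± 0.44 (adjusted p = 1.34e-05). The fibrinogen genes Fga (-1.69), Fgb (-1.55) and Fgg (-1.66), Saa4 (-1.69) and Lbp (-1.10), named here after their values were seen, were also lower. Serpina1a was among the 7 higher genes, with a possible failed estimate in 3 libraries, since its values ran from 0 to 37200.

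Negative acute phase proteins are those whose plasma level falls in inflammation. Of 12, 11 were tested, 5 were lower (beside 20.7% of all genes) and 1 was higher (beside 29.8%), with a median of -0.84. Ttr, transthyretin, was lower (-1.52 ± 0.47, adjusted p = 0.0118), as was Igf1 (-1.09 ± 0.35, adjusted p = 0.0142), and Apoa4, an apolipoprotein of lipid transport, was higher (2.82 ± 0.40, adjusted p = 1.6e-05). Trf, transferrin, is among the 5 and had 4 libraries with a possible failed estimate.

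Among cytokines that drive the response, most of those tested were higher. Of 10, 8 were tested, 6 rose (beside 29.8% of all genes) and 1 fell (beside 20.7%), with a median of 2.81. Tnf had 9.61 ± 5.84 normalized counts in Regular diet (SD, n = 5) and 222 ± 28.9 in Vehicle Control (SD, n = 6), a log2 fold change of 4.56 ± 0.28 (adjusted p = 1.43e-09). Clcf1 (4.17 ± 0.25) and Lif (4.70 ± 0.36), both of the interleukin 6 family, rose as well, and Ctf1, cardiotrophin 1, fell (-0.72 ± 0.24, adjusted p = 0.019). Il22 was at 0 in all libraries, and Il6, the gene of interleukin 6, did not pass the filter on low values, so neither was tested. Il1b, an interleukin 1 gene named for its role after its value was seen, was not called (0.24 ± 0.32, adjusted p = 0.576). Il1a, also an interleukin 1 gene and named in the same way, was among the 6 that rose (0.61 ± 0.22, adjusted p = 0.0311). Among 11 receptors, 4 rose and 2 fell, near the shares of all genes (29.8% and 20.7%), with a median of -0.07. Il10rb (2.65 ± 0.22) and Osmr (2.46 ± 0.32), the oncostatin M receptor, were higher, and Lifr, the receptor of leukaemia inhibitory factor, fell from 19600 ± 5810 in Regular diet (SD, n = 5) to 5110 ± 2310 in Vehicle Control (SD, n = 6; adjusted p = 4.28e-06). The interleukin 6 receptor genes Il6ra (-0.18) and Il6st (-0.07), named for their role after their values were seen, did not pass.

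Of 22 transducers, transcription factors and feedback genes, 8 rose and 6 fell, near the shares of all genes (29.8% and 20.7%), with a median of 0.26. Socs3, the feedback inhibitor induced by STAT3, rose from 525 ± 191 in Regular diet to 1390 ± 410 in Vehicle Control (1.42 ± 0.25, adjusted p = 1.34e-04), and Nfkbiz, an NF-kappaB cofactor, rose by 1.02 ± 0.20 on the log2 scale (adjusted p = 3.68e-04). Stat3 (-0.49 ± 0.17, adjusted p = 0.022) and Cebpb (-1.85 ± 0.70, adjusted p = 0.0343), whose families' motifs were searched above, were lower; both were picked after their values were seen.

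Partners and receptors of the reactants, 22 genes, gave 12 higher (beside 29.8% of all genes) and 6 lower (beside 20.7%), with a median of 1.5. Cd163, the macrophage receptor for haptoglobin bound to haemoglobin, fell from 660 ± 388 (SD, n = 5) in Regular diet to 20.4 ± 11.3 (SD, n = 6) in Vehicle Control and 12.1 ± 5.41 (SD, n = 6) in CLDN1 mAb, a log2 fold change of -4.86 ± 0.44 in Vehicle Control (adjusted p = 1.08e-07). Serum amyloid A receptors did not all move alike. Tlr2 (2.51 ± 0.24) and Cd36 (2.74 ± 0.25) rose. Scarb1 was lower (-0.59 ± 0.20, adjusted p = 0.0211) and Fpr2 was not called (0.22 ± 0.33, adjusted p = 0.603), both named after their values were seen. In CLDN1 mAb against Vehicle Control, 0 of 103 tested genes of these 6 lists passed, beside 0% of all genes. An unadjusted p under 0.05 (limma) was reached by 10 of the 103, beside 7.47% of all genes, so this count is near the background. The medians of the lists ran from -0.33 to 0.59 on the log2 scale.

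**Figure D5:**
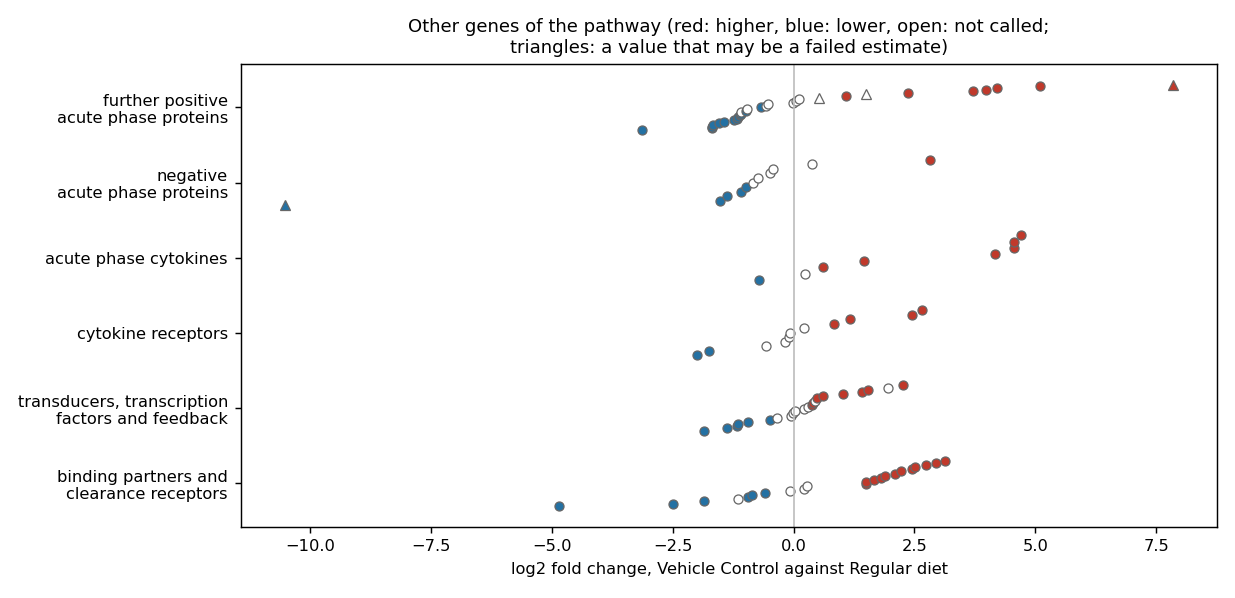
Log2 fold change of Vehicle Control against Regular diet (horizontal axis) for the tested genes of 6 lists of the acute phase pathway; each point is a gene, red where higher and blue where lower at an adjusted p under 0.05, open otherwise, and triangles mark genes with a possible failed estimate. Cytokines and binding partners lie mostly to the right of 0, and positive and negative acute phase proteins mostly to the left.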

How the data were processed

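RNA sequencing of bulk liver from 17 mice gave 1 deposited table of 52545 genes. Its values, analysed here as a signal, are counts that the authors normalized with cuffnorm, per the file headers, using Cufflinks 2.2.1 on build mm10, per the submitters' processing notes; they are not raw counts, so no count model was used. Aligner, annotation release, strand and scaling option are not given in the sources used here, and sums of normalized values (29.7 to 74.6 M) are not sequencing depth, which is unknown. Symbols were matched for 52398 gene IDs (99.7%), and positions and exons came from GENCODE on GRCm38, which is mm10.

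The filter kept 18624 genes, those reaching 10 in a minimum of 5 libraries. They were tested on log2(value + 1) with limma 3.58.1 in R 4.3.3 (limma-trend, group as the only term, all 17 libraries in one fit, two-sided, Benjamini-Hochberg adjustment, threshold 0.05); the script was tested on simulated data. Correlations used permutations in Python 3.11.15 with numpy 2.4.6. Alternatives were other pseudocounts, filters and scalings, sample weights, a replicate block, a library code term, only the groups compared, missing failed estimates, and leaving out each mouse. Per-kilobase levels used the lowest-numbered coding transcript, chosen after seeing the data because annotated retained introns lengthen the union of exons.

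All 10 members are described; of each further list, up to 3 genes with the smallest p in Vehicle Control against Regular diet and 1 called in the opposite direction are named, and for each member the 3 genes most alike in pattern. Some genes that this rule names are not reported here. Members, lists and tests were chosen with earlier results of these data known.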

Additional observations from a re-analysis of the deposited data

Results flagged for a closer look

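Of 30 sets of values (10 members in 3 groups), 5 had 1 mouse far from the rest by Dixon's criterion. The criterion was applied to normalized counts and not on the log2 scale of the tests. Its rate of about 1 in 20 by chance holds for normally distributed values, which such counts need not be. The 5 sets are therefore not read against that rate. Regular diet mouse 1 was the far sample in 4 of them: Saa3 at 759 normalized counts, Orm1 at 114000, Hp at 570000 and Hpx at 701000, with a gap to the next mouse of 0.739, 0.787, 0.734 and 0.735 of the group's range. This mouse also had the highest sum of all libraries, 74.6 M, and the highest sum of hepatocyte markers, 3290000 against 1740000 to 1940000 in the other 4 Regular diet mice. Vehicle Control mouse 2 was the far sample for Hp, at 441000, with a gap of 0.657 of the range.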

How the results depend on the processing

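Of 650 values of single members under alternatives, 607 kept their direction and side of the threshold, 19 newly passed it, 2 no longer passed it and 22 changed sign. All changes of sign were of values that had not passed. In Vehicle Control against Regular diet they were Orm1 after quantile normalization (0.02), Hp at the same sum per library (0.56), after quantile normalization (1.07), with sample weights (0.02) and with the replicate block (0.07), and Hpx at the same sum (0.54), after quantile normalization (1.14) and with the block (0.09). Leaving out 1 mouse gave -0.31 to 0.33 for Hp and -0.32 to 0.24 for Hpx. Between CLDN1 mAb and Vehicle Control, quantile normalization gave -0.08 for Hp, -0.03 for Hpx and -0.07 for Lcn2. In CLDN1 mAb against Regular diet, Orm1 became 0.24 at the same sum, 0.42 after quantile normalization and 0.07 with sample weights, and leaving out 1 mouse gave -0.36 to 0.18. Between CLDN1 mAb and Vehicle Control, 2 genes passed with no filter on low values, and 5310 genes and 4 members with sample weights. In CLDN1 mAb against Regular diet, sample weights called 11344 genes against 7247, and quantile normalization called 8 members against 5. Pairs of members with a correlation past the threshold fell from 32 to 18 at the same sum, 12 after quantile normalization, 16 within Vehicle Control, 0 within CLDN1 mAb and 18 without the 2 farthest mice. The cause was not tested. Mouse numbers did not pair the samples: same-numbered mice correlated at -0.344 to 0.656, and the replicate block called 5, 0 and 6 members in the 3 comparisons, the sixth being Saa1 in CLDN1 mAb against Regular diet (1.73). Same-sum scaling moved the median of all genes from 0.04 to 0.65 in Vehicle Control against Regular diet and from 0.01 to 0.44 in CLDN1 mAb against Regular diet, where 89.5% of called genes were then higher against 63.7% as deposited and 48.8% after quantile normalization. Sequencing depth is unknown, so no counting error is given.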
